A study of Homo sapiens with 4 samples.

Results

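The genes described here encode the enzymes that copy nuclear DNA: subunits of the polymerase alpha-primase complex (POLA1, POLA2 and PRIM1), of polymerase delta (POLD3) and of polymerase epsilon (POLE and POLE2), the clamp loader subunits RFC3, RFC4 and RFC5, and the sliding clamp PCNA. These 10 genes were chosen by name, with earlier results of these data known. Probe sets were found by the gene symbol that the platform annotation gives. Of the 10, 9 had a probe set annotated with their symbol alone, out of 17144 genes so named on the array. POLA1 had only a probe set that also carries SCARNA23, a small RNA gene lying within POLA1, so its values are those of a shared probe set. PCNA had a probe set of its own and another shared with its antisense transcript PCNA-AS1.

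The measurements came from WM35, an established human line of radial-growth-phase melanoma, grown in serum-containing medium. Cultures received 20 µM of C646, which inhibits p300 and CBP, a pair of histone acetyltransferases, or DMSO, its solvent, at 0.2%. Whether C646 cultures also held 0.2% DMSO is not stated in the labels. RNA was taken after 6 h and after 24 h, and each of the 4 groups, C646 at 6 h, DMSO at 6 h, C646 at 24 h and DMSO at 24 h, was measured on 1 Affymetrix Human Exon 1.0 ST array. The study asked how transcription responds when p300 activity is blocked.

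With 1 array a group, a difference between C646 and DMSO has no replicate check, and the number of arrays limits its precision. Values are the authors' deposited log2 expression values, and 1 unit is a 2-fold difference. Probe sets were kept at a 4-array mean of 3.96 or more, the 40th percentile, and 16579 of 27631 passed. All 11 probe sets of the 10 genes passed. Of 8 melanocyte markers, 6 had a probe set of their own and all of these passed the filter, among them PMEL at 10.69 to 10.95. Their mean level was 8.27 with C646 and 7.91 with DMSO at 6 h, and 8.31 with C646 and 7.68 with DMSO at 24 h. At 24 h all 6 were higher with C646, from 0.078 for PMEL to 1.49 for S100B. TYR is not in the mean, because its probe sets also carry TYRL. Its brighter probe set went the other way at 24 h, at 7.59 with C646 and 8.22 with DMSO, and another was at -0.087. None of the 3 measured leukocyte markers passed, 1 of 3 keratinocyte, 2 of 4 fibroblast and 1 of 4 endothelial markers did. The endothelial one, the receptor gene KDR, read 8.65 with C646 and 8.12 with DMSO at 6 h, and 8.35 with C646 and 7.66 with DMSO at 24 h. The mean level over all 4 endothelial markers was 4.72 with C646 and 4.60 with DMSO at 6 h, and 4.68 with C646 and 4.52 with DMSO at 24 h, and its part in the results was not tested.

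A replication fork is started by polymerase alpha-primase, whose primase subunit lays down a short RNA primer that the polymerase extends with DNA. The clamp loader, replication factor C, then opens the PCNA ring and closes it around the primed DNA, where it tethers polymerase delta on the lagging strand and polymerase epsilon on the leading strand. Genes of this machinery are known targets of E2F transcription factors, which act when cells enter S phase, and their messenger RNA is more abundant in cycling than in resting cells.

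The start regions of the genes are shown because most of them share a sequence feature. This feature is not independent of the choice of genes. They were chosen with earlier results of these data known, and their machinery is a known target of E2F. RefSeq promoter windows (GRCh38.p14) of 300 bases, from 250 bases before the transcript start, were found for 9 of the 10 genes, all but POLD3, and PCNA has 2 starts. They were searched on both strands for an E2F-type word (TTCCCGC or TTGGCGC or TTCGCGC or TTGCCGC), for CCAAT, the core of the NF-Y site, and for TTTGAA, the cell cycle homology region word of late cell cycle genes. In the sequences, given 5′ to 3′ on the strand of the gene, capitals mark E2F-type words or their reverse complement. The whole window is given for POLE2 and PRIM1, which had the lowest differences at 24 h, and for RFC4 and PCNA, which had the differences nearest 0.
POLE2, chr14:49688165-49688464, minus strand: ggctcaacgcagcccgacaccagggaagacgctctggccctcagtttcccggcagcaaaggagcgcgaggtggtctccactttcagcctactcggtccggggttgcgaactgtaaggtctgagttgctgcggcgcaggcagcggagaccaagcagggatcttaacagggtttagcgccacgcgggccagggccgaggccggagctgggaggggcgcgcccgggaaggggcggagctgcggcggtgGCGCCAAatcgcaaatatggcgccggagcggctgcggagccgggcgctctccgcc
PRIM1, chr12:56752274-56752573, minus strand: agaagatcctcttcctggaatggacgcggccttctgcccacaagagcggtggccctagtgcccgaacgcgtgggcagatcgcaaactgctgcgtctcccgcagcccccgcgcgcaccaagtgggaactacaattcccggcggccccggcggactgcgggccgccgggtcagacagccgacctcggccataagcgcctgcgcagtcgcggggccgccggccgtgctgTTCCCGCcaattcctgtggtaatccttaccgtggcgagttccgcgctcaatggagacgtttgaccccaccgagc
RFC4, chr3:186806433-186806732, minus strand: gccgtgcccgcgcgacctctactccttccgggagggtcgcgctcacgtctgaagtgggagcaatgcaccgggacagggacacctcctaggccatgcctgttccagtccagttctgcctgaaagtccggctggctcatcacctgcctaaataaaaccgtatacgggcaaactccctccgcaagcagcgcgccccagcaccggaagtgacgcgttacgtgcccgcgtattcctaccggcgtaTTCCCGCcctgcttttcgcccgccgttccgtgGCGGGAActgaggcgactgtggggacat
PCNA, first start, chr20:5126573-5126872, minus strand: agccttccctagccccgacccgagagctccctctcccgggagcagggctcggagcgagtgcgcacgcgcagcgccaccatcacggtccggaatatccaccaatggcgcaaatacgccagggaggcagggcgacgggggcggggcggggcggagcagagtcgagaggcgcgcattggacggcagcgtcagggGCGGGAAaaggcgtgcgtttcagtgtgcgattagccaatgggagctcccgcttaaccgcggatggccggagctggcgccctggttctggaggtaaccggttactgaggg

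For the other genes, the word nearest the 3′ end of the window is given with 12 bases on either side.
POLA1, chrX:24693922-24693952, plus strand: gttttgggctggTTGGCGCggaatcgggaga
POLA2, chr11:65261898-65261928, plus strand: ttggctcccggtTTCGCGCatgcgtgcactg
POLE, chr12:132687342-132687372, minus strand: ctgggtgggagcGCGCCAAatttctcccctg
RFC3, chr13:33818082-33818112, plus strand: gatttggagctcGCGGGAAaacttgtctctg
RFC5, chr12:118016706-118016736, plus strand: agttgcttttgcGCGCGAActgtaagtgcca

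An E2F-type word stood in 9 of the 10 windows and in at least 1 window of each of the 9 genes, while the second start of PCNA held none. Of all 35116 windows in the table, 13.0% held such a word, as did 18.6% of the 12625 windows of genes that passed the filter and 40.5% of the 316 windows of genes at least 2-fold lower at 24 h. POLA1 had 3 such words, POLE and RFC4 had 2 each, and the other genes 1 each. With the start base counted as 0, the word of POLE2 ran from -5 to 1, that of PRIM1 from -24 to -18, and the RFC4 words from -10 to -4 and from 22 to 28. CCAAT stood in 6 of the 10 windows (60%), against 34.6% of all windows, 34.6% of those of genes past the filter and 56.3% of those of genes at least 2-fold lower at 24 h. The first start of PCNA held it 3 times. In PRIM1 and in POLE a CCAAT overlapped an E2F-type word. TTTGAA was in none of the 10 windows, in 15.2% of all windows, in 10.5% of those of genes past the filter and in 28.2% of those of genes at least 2-fold lower. The median GC content was 66.7% over the 10 windows, 58.7% over all, 65.0% for genes past the filter and 63.7% for genes at least 2-fold lower. A word is a match of letters only, and no binding was measured here.

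**Figure D1:**
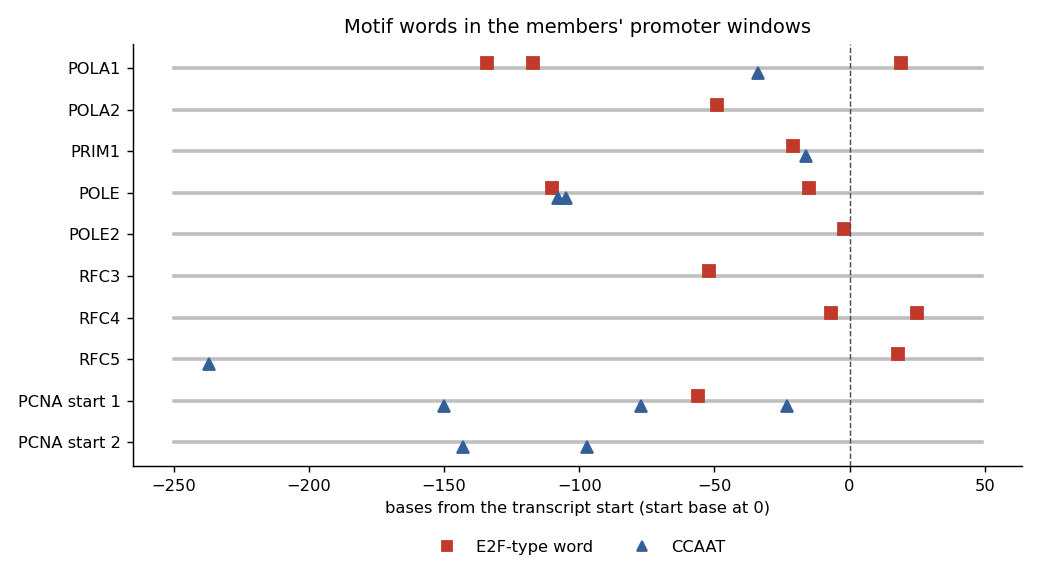
Positions of E2F-type words (squares) and CCAAT (triangles) in the 10 promoter windows of 9 genes, on an axis of bases from the transcript start with the start base at 0. Every window but that of the second PCNA start holds at least 1 E2F-type word, and POLE, POLE2, PRIM1 and RFC4 have one within 24 bases before the start.

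After 24 h, the C646-treated cells had lower levels on every probe set of these genes. The median difference over the 9 genes with their own probe set was -1.40 on the log2 scale, against 0.030 over all probe sets, and 7 of 9 were at least 2-fold lower, where 2.5% of all probe sets were. All 9 lay below 0, as did 45.0% of all probe sets. RFC4 and PCNA did not reach 2-fold, and at a 1.5-fold limit 8 of 9 counted as lower, against 5.34% of all probe sets. The gene short of 1.5-fold was PCNA, 1.39-fold lower by its own probe set. The shared PCNA probe set, of higher mean level, was 1.63-fold lower, and the shared POLA1 probe set 2.65-fold lower. Because the genes were chosen with earlier results known, their shares against all probe sets, here and below, are no independent test. Over the 8 other subunits of the same enzymes the median was -0.37, and 1 of 8 was at least 2-fold lower. In bulk RNA, fewer cells in S phase and less RNA per cell cannot be told apart. The dividing cell markers MKI67, TOP2A, CCNB1, CDK1 and BUB1 lay between -2.81 and -1.86 at 24 h in the same arrays.

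POLA2, the regulatory B subunit of polymerase alpha, read 7.02 with C646 and 7.14 with DMSO at 6 h, and 5.56 with C646 and 6.99 with DMSO at 24 h. The C646 array of 24 h stood alone and the other 3 lay within 0.15 of each other. The difference of -1.43 at 24 h left 37.1% of the level in DMSO. PRIM1, the catalytic subunit of primase, read 7.09 with C646 and 7.01 with DMSO at 6 h, and 5.43 with C646 and 6.97 with DMSO at 24 h. It was slightly higher with C646 at 6 h and, at -1.54, had the second lowest difference of the 9 at 24 h, with 34.5% of the DMSO level left. The probe set shared by POLA1, the catalytic subunit of polymerase alpha, and SCARNA23 read 5.68 with C646 and 6.03 with DMSO at 6 h, and 4.48 with C646 and 5.89 with DMSO at 24 h. Its difference was already -0.34 at 6 h, the lowest among the 11 probe sets at that time, and -1.40 at 24 h.

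Among the polymerases that extend the strands, POLE, the catalytic subunit of polymerase epsilon, read 6.32 with C646 and 6.47 with DMSO at 6 h, and 4.94 with C646 and 6.34 with DMSO at 24 h. The 24 h difference of -1.40 corresponds to 37.9% of the DMSO level. POLE2, its second subunit, read 5.65 with C646 and 5.85 with DMSO at 6 h, and 3.94 with C646 and 5.66 with DMSO at 24 h. At -1.72 it had the lowest difference of the 9, leaving 30.4% of the DMSO level, and its C646 value at 24 h lay just under the 3.96 of the filter. POLD3, an accessory subunit of polymerase delta, read 5.79 with C646 and 5.88 with DMSO at 6 h, and 4.44 with C646 and 5.86 with DMSO at 24 h. Its 3 other arrays were the closest together of all members, within 0.084, and its 24 h difference was -1.42.

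The chosen clamp loader subunits ranged more widely than the chosen subunits of each polymerase, from -1.39 to -0.68 at 24 h. This depends on the choice of subunits. With the other subunits included, the clamp loader ran from -1.40 to -0.33, polymerase delta from -1.42 to 0.60 and polymerase epsilon from -1.72 to -0.073. RFC3 read 6.29 with C646 and 6.42 with DMSO at 6 h, and 4.87 with C646 and 6.26 with DMSO at 24 h, a 24 h difference of -1.39. RFC5 read 7.35 with C646 and 7.35 with DMSO at 6 h, and 5.85 with C646 and 7.04 with DMSO at 24 h, a difference of -1.19. RFC5 was also the gene that had drifted most in the vehicle, by -0.32 between the DMSO arrays. RFC4 read 6.74 with C646 and 6.73 with DMSO at 6 h, and 5.92 with C646 and 6.60 with DMSO at 24 h. Its difference of -0.68 left 62.6% of the DMSO level. All 3 encode small subunits of the same complex.

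PCNA is the clamp, and its own probe set had the smallest 24 h difference of the 9. That probe set read 5.56 with C646 and 5.65 with DMSO at 6 h, and 5.19 with C646 and 5.66 with DMSO at 24 h, a difference of -0.47 that left 72.1% of the DMSO level. This probe set is numbered among those of chromosome X, whereas PCNA lies on chromosome 20. The probe set shared with PCNA-AS1 is numbered among those of chromosome 20. It read 7.88 with C646 and 7.75 with DMSO at 6 h, and 6.97 with C646 and 7.68 with DMSO at 24 h, a difference of -0.71. Its mean level is the higher of the PCNA probe sets, and by it RFC4, at -0.68, would have the smallest difference. Both probe sets of the clamp gene therefore stayed short of 2-fold at 24 h, and at 6 h they lay on opposite sides of 0, at -0.089 and 0.14. For the other 8 genes, number and chromosome matched.

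**Figure D2:**
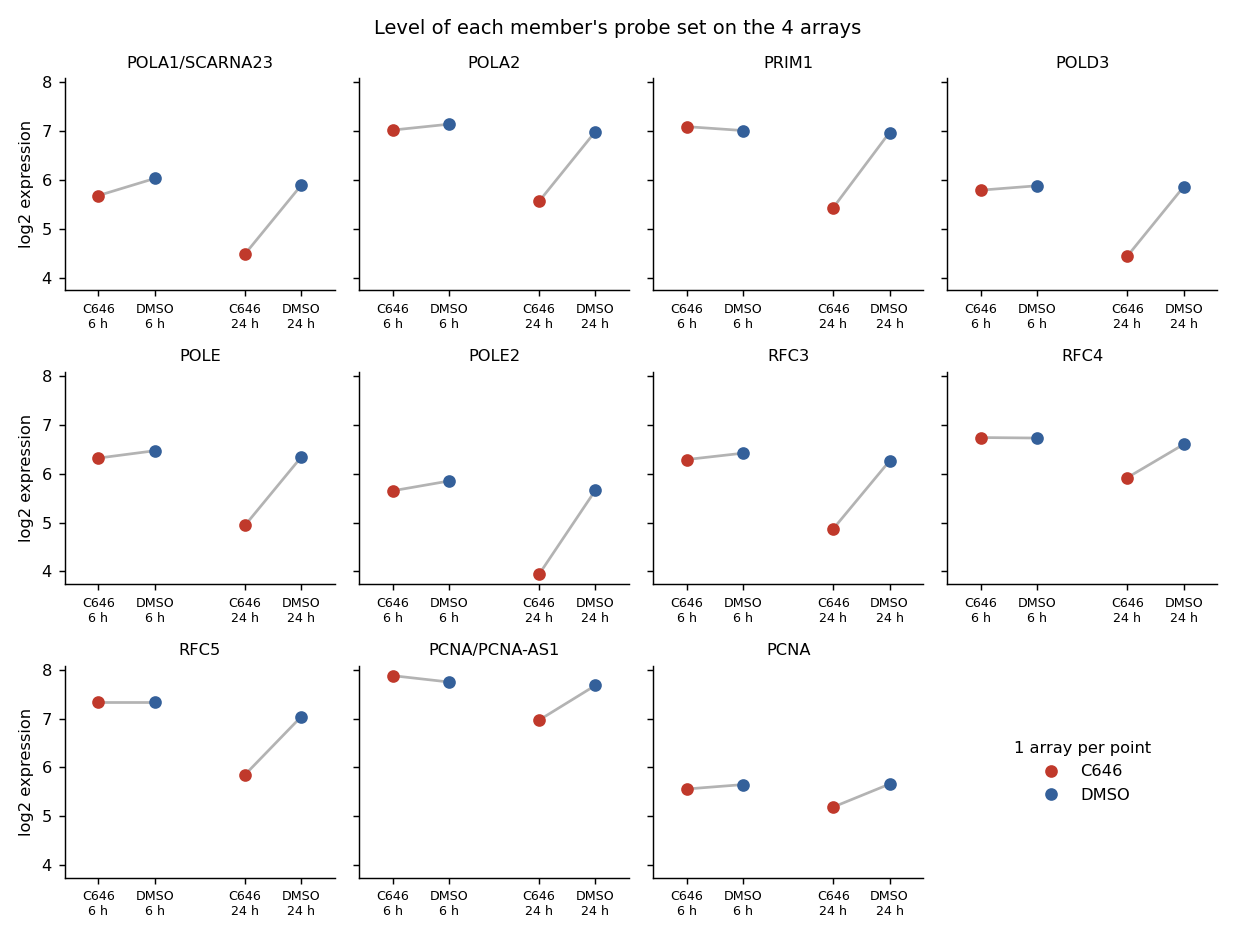
Log2 expression of each of the 11 probe sets of the 10 genes on the 4 arrays, 1 point an array, with C646 left of DMSO at 6 h and at 24 h. In every panel the C646 point of 24 h is the lowest, and the shift is smallest for both PCNA probe sets and RFC4. Levels of different genes are not to be compared.

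The C646 array of 24 h was the lowest of the 4 for all 11 probe sets, as it was for 30.3% of all probe sets. It lay at least 2-fold below the lowest of the other arrays for 7 of the 9 genes, against 2.0% of all probe sets. For these 9 genes the gap to the lowest other array was 0.38 to 1.71, and the other 3 arrays spanned 0.084 to 0.32. Ranked from the lowest of 16579 probe sets by the 24 h difference, POLE2 was at 166, PRIM1 at 214, POLA2 at 236, POLD3 at 240, POLE at 249, RFC3 at 253, RFC5 at 326, RFC4 at 726 and PCNA, by its own probe set, at 1213. The shared PCNA probe set, whose mean level is the higher, was at 682. POLA2, POLD3, POLE and RFC3 lay between -1.43 and -1.39, closer together than the SD of 0.17 by which all probe sets differed between the DMSO arrays. That SD also covers the time between those arrays and is no replicate error. The steps to POLE2 below that group and to RFC5, RFC4 and PCNA above it were larger than that SD, while the step to PRIM1 was smaller. By the shared PCNA probe set, at -0.71, the step between PCNA and RFC4, at -0.68, was smaller than that SD.

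**Figure D3:**
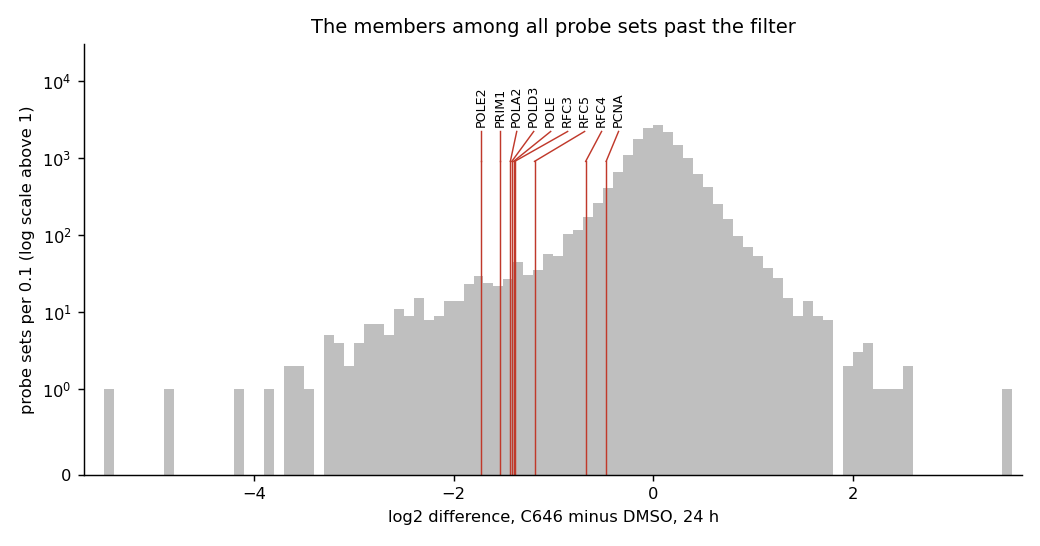
Histogram of the log2 difference, C646 minus DMSO at 24 h, over 16579 probe sets in bins of 0.1 (log scale above 1), with a line for each of the 9 genes with a probe set of their own. POLE2 at -1.72 is farthest left and PCNA, by its own probe set, at -0.47 farthest right, and none of the 9 is above 0.

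At 6 h the differences were small. None of the 9 genes was 2-fold lower, as was 0.115% of all probe sets, and 6 of 9 lay below 0, against 50.6%. The median was -0.089 over the 9 genes and -0.0024 over all probe sets. POLE2 was lowest at -0.20, followed by POLE at -0.15, RFC3 at -0.13, POLA2 at -0.12, PCNA at -0.089 and POLD3 at -0.084. PRIM1 was highest at 0.078, and RFC4 and RFC5 were at 0.0088 and 0.00080, on the other side of 0 when each array was centred on its median. Against the mean of both DMSO arrays, the median was -0.047, RFC5 was highest of the 9 at 0.16, ahead of PRIM1 at 0.0997, and POLA2 and RFC3 were at -0.046 and -0.047. Each of these differences was smaller than the SD of 0.22 over all probe sets at 6 h.

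In the vehicle, most of the same genes read slightly lower on the array of 24 h than on that of 6 h. The DMSO difference between the times had a median of -0.13, against -0.014 over all probe sets. It lay below 0 for 8 of 9 genes, against 54.8% of all probe sets. None was 2-fold lower, as was 0.0905% of all probe sets. It ran from -0.32 for RFC5 and -0.19 for POLE2 to -0.017 for POLD3 and 0.0053 for PCNA, and POLD3 lay above 0 after quantile normalization. That PCNA value is from its own probe set, and the shared one, of higher mean level, was at -0.071. Only RFC5 and POLE2 differed by more than the SD of 0.17 over all probe sets. Under C646, 24 h against 6 h gave a median of -1.42, and 7 of 9 genes were at least 2-fold lower, against 2.41% of all probe sets. POLE2 was at -1.71, PRIM1 at -1.66, RFC5 at -1.51, POLA2 at -1.46, RFC3 at -1.42, POLE at -1.37, POLD3 at -1.35, RFC4 at -0.82 and PCNA at -0.38. The shared PCNA probe set was at -0.91. The comparisons share arrays with each other, so they are given side by side.

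The C646 effect at 24 h minus that at 6 h was -1.26 in the median over the 9 genes, and at least 2-fold lower for 7 of 9, against 2.2% of all probe sets. It was -1.61 for PRIM1, -1.52 for POLE2, -1.33 for POLD3, -1.31 for POLA2, -1.26 for RFC3, -1.25 for POLE, -1.19 for RFC5, -0.68 for RFC4 and -0.38 for PCNA. For the shared PCNA probe set it was -0.84. With all 4 arrays used up by this difference, it could not be tested.

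**Figure D4:**
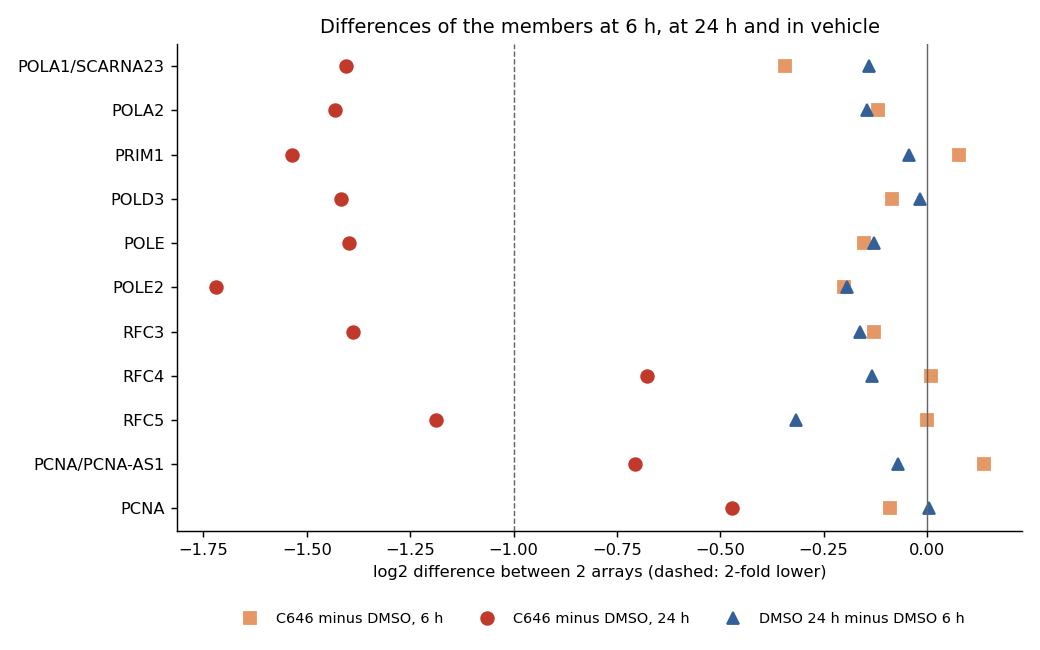
Log2 differences of the 11 probe sets: C646 minus DMSO at 6 h (squares), C646 minus DMSO at 24 h (circles) and DMSO 24 h minus DMSO 6 h (triangles), with a dashed line at 2-fold lower. The 6 h and vehicle points lie within 0.35 of 0, while the 24 h points of all but RFC4 and both PCNA probe sets lie left of the dashed line.

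A limma comparison of the C646 array of 24 h with the DMSO arrays of both times was fitted on all 16579 probe sets with Benjamini-Hochberg adjustment. All 9 genes fell, where 6.9% of all probe sets did and 6.68% rose. The estimates ran from -1.82 ± 0.12 (SE) for POLE2 (limma adjusted p = 0.00444) to -0.47 ± 0.085 for PCNA (limma adjusted p = 0.0370). PRIM1 was at -1.56 ± 0.090 (limma adjusted p = 0.00386), RFC5 at -1.35 ± 0.16 (0.0158) and RFC4 at -0.74 ± 0.10 (0.0218), and the remaining adjusted p-values were 0.00400 to 0.00562. The POLA1 and SCARNA23 probe set was at -1.47 ± 0.10 (0.00502), the shared PCNA probe set at -0.74 ± 0.096 (0.0193). Without the filter on low values the call of PCNA's own probe set ended (limma adjusted p = 0.0658). A probe set's own error in this fit comes from the DMSO pair alone, whose arrays differ in time. limma draws that error towards a value shared by all probe sets of similar level, so the printed SEs are not the pair's alone. The single C646 array is assumed to vary like the DMSO pair.

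In the limma model over both times, with time and treatment as terms, none of the 9 genes was called, and 0 of 16579 probe sets were called lower (0%), the lowest adjusted p of any being 0.448. The estimates, which average the 6 h and 24 h effects, ran from -0.96 ± 0.39 (SE) for POLE2 to -0.28 ± 0.14 for PCNA, with limma adjusted p-values of 0.449 to 0.544. At an unadjusted limma p under 0.05, none of the 9 was lower, against 4.9% of all probe sets, and their unadjusted p-values ran from 0.0698 to 0.174. The probe set of POLA1 and SCARNA23 was at -0.87 ± 0.28 (limma unadjusted p = 0.0366, adjusted p = 0.448), and the shared PCNA probe set had an unadjusted limma p of 0.2996. A probe set's own error here is the disagreement of the times, again drawn towards a shared value. The genes disagreed by 0.38 to 1.61 between the times.

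Of the subunits of the same enzymes that are not among the 10 genes, 7 of 8 lay below 0 at 24 h and POLD4 lay above it. Over the 8 listed genes the median was -0.37, 1 of 8 was at least 2-fold lower, and 3 of 8 were called as fallen by the limma comparison with both DMSO arrays: RFC2, POLD1 and PRIM2. Some of the genes in this paragraph were added after their values were seen, to complete each enzyme. In polymerase alpha-primase, PRIM2, the large primase subunit, was at -0.75 beside PRIM1 at -1.54 and POLA2 at -1.43. In polymerase delta, the catalytic subunit POLD1 was at -0.77, POLD2 at -0.32 and the smallest subunit POLD4 at 0.60, beside POLD3 at -1.42. In polymerase epsilon, the histone-fold subunits POLE3 and POLE4 were at -0.40 and -0.073, beside POLE at -1.40 and POLE2 at -1.72. In the clamp loader, the large subunit RFC1 was at -0.33, beside RFC2 at -1.40, RFC3 at -1.39, RFC5 at -1.19 and RFC4 at -0.68. POLD4 read 5.92 with C646 and 6.10 with DMSO at 6 h, and 6.43 with C646 and 5.83 with DMSO at 24 h, so C646 was the highest array at 24 h. In the other 3 enzymes every subunit with a probe set of its own lay below 0 at 24 h, RFC1, POLE3 and POLE4 without a limma call.

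Alternative clamp loaders share RFC2 to RFC5 and replace RFC1 by another large subunit. ATAD5, the large subunit of the complex that unloads PCNA, was at -2.16, and DSCC1, a subunit of the loader that acts in sister chromatid cohesion, was at -2.08. ATAD5 read 4.41 with C646 and 6.57 with DMSO at 24 h, and DSCC1 4.37 with C646 and 6.44 with DMSO. CHTF18, the large subunit of the cohesion loader, was at -0.40 (limma adjusted p = 0.0487), and a probe set it shares with RPUSD1 was at -0.061 (limma adjusted p = 0.920). RAD17, which loads the checkpoint clamp, and HUS1, a subunit of that clamp, were at 0.45 and 0.13. Over the 7 measured genes the median was -0.40, 2 of 7 were at least 2-fold lower, and 4 of 7 had fallen by limma, namely ATAD5, DSCC1, CHTF18 and RAD1, a subunit of the checkpoint clamp. The RAD1 probe set, at -0.60, is numbered among those of chromosome 10, whereas the gene lies on chromosome 5, while a RAD1 probe set numbered among those of chromosome 5 was at -0.56 and one shared with BRIX1 at -0.13. CHTF18 and RAD1 were named after their values were seen.

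Genes of lagging strand processing and partners of the clamp were at -1.04 in the median at 24 h. Of 12 measured, 6 were at least 2-fold lower and 11 had fallen by limma. The exonuclease EXO1 was at -2.51, the flap endonuclease FEN1 at -1.82, the chromatin assembly factors CHAF1A and CHAF1B at -1.55 and -1.51, WDHD1, which links polymerase alpha to the helicase, at -1.28, and RNASEH2A at -1.12. RNASEH2B and RNASEH1, further subunits or enzymes that remove RNA from DNA, were the highest, at -0.42 and -0.063. The FEN1 probe set is numbered among those of chromosome 1, whereas the gene lies on chromosome 11, and another probe set shared with FADS2 was at -0.95. Without probe sets numbered on another chromosome the median of the list was -0.96.

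Polymerases of repair, translesion synthesis and mitochondria had a median near 0, at 0.080 after 24 h. Among the 12 measured, 1 was at least 2-fold lower, POLQ, the polymerase of microhomology-mediated end joining, at -1.29. By the limma comparison with both DMSO arrays POLQ fell and POLG2, the accessory subunit of the mitochondrial polymerase, and POLL, a polymerase of end joining, rose, at 24 h differences of 0.69 and 0.48 (limma adjusted p = 0.0364 and 0.0299). REV1, a scaffold of translesion synthesis, was at -0.30. For reference genes the median was 0.096, 0 of 8 were at least 2-fold lower and none was called by limma. GAPDH was at 0.32, TBP at 0.22, HPRT1 at -0.031 and YWHAZ, through a probe set numbered among another chromosome's, at -0.0033. Differences between the lists were not tested.

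**Figure D5:**
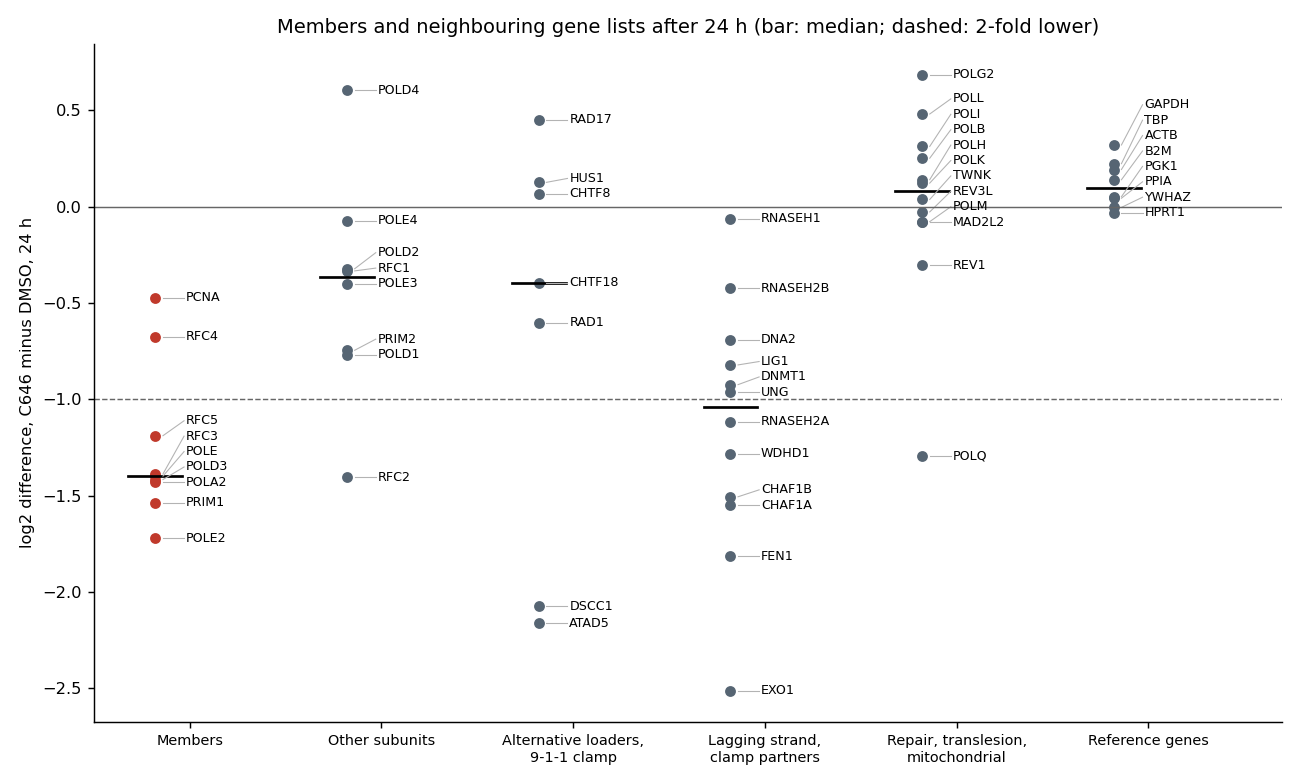
Log2 difference, C646 minus DMSO at 24 h, for the 9 genes (red) and the neighbouring lists (blue-grey), 1 point a gene, with a bar at each list's median and a dashed line at 2-fold lower. The medians are -1.40 for the members, -0.37 for other subunits, -0.40 for alternative loaders, -1.04 for lagging strand genes, 0.080 for other polymerases and 0.096 for reference genes.

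Each gene's 4 values were centred on their mean, and the genes were compared with the median centred profile of the 9, which stood at 0.33 for C646 and 0.45 for DMSO at 6 h, and at -1.07 for C646 and 0.31 for DMSO at 24 h. RFC3, POLE and POLA2 were nearest to it, at Euclidean distances of 0.024, 0.033 and 0.044. RFC4 and PCNA, the latter by its own probe set numbered on chromosome X, were farthest, at 0.59 and 0.88. Outside the 10 genes, the 6 nearest of the named genes past the filter were CENPU, CEP85, BIRC5, CDCA4, EZH2 and KIF24, at distances of 0.037 to 0.076 over the 4 arrays. Their differences at 24 h lay between -1.42 for EZH2, a histone methyltransferase, and -1.30 for the kinesin KIF24. CENPU, a kinetochore gene, read 7.04 with C646 and 7.16 with DMSO at 6 h, and 5.67 with C646 and 7.01 with DMSO at 24 h.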

How the data were processed

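Total RNA from 4 cultures of WM35 was hybridised to 1 array each. Per the labels' protocols, 100 ng of RNA was amplified and labelled as sense-strand cDNA. The authors deposited log2 expression values, a scale read from the values (2.48 to 13.6), with array medians of 4.39 to 4.41. The summarisation and normalisation steps are not given in the sources used here, and only the build hg19 is named in the submitters' processing notes, and none of its coordinates are printed.

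In the platform annotation 20429 probe sets carry 1 symbol, 4232 carry several and 2970 carry none. Names were updated through Entrez identifiers (GRCh38.p14), which matched 20362. The probe set of 1 symbol with the highest mean over the arrays stood for a gene. A probe set was counted as numbered on a chromosome by the commonest chromosome among its 51 nearest neighbours in number.

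Differences are 1 array minus 1 array and carry no p-value. limma 3.58.1 (R 4.3.3) was fitted with a mean-variance trend on all kept probe sets, at an adjusted p of 0.05, with 1 residual degree of freedom in each fit. The fits were also run on simulated data, with equal noise on every array and the same planted effect on both C646 arrays. The members differed between the times, so that run does not show how the fits behave on these data. Alternatives were other normalizations, filters, probe set rules, fold limits and vehicle arrays, and each array left out. Promoter windows and their coordinates are RefSeq's. In the neighbouring lists, the 2 highest and 2 lowest genes at 24 h and all those 2-fold different were to be named, and others are said to be additions. Members, lists and rules were chosen with earlier results of these data known.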

Additional observations from a re-analysis of the deposited data

Results flagged for a closer look

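Some probe sets lay above 0 at one time and below 0 at the other, with 1 array a group, and the difference between the times was not tested. Given as the C646 effect at 24 h minus the effect at 6 h, it was -1.61 for PRIM1, which was at 0.078 at 6 h and -1.54 at 24 h. It was -0.68 for RFC4, -1.19 for RFC5, whose 6 h value was 0.00080, and -0.84 for the probe set shared by PCNA and PCNA-AS1, which was at 0.14 at 6 h. In the neighbouring lists only the genes to be named by rule were looked at. Others there also changed sides, among them POLE3, from 0.075 at 6 h to -0.40 at 24 h, and DNA2, from 0.067 to -0.69. For the genes named by rule the difference between the times was 0.78 for POLD4, -0.083 for POLE4, 0.18 for HUS1, -1.90 for FEN1 and -0.23 for RNASEH1. Of the genes looked at, PRIM1, RFC5 and FEN1 differed by more than 2-fold between the times.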

How the results depend on the processing

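Of the alternatives run on the comparisons, 97 of 98 recomputed values held: medians over the members kept their sign and their side of 2-fold, and counts of members lower or called by limma stayed within 1.5-fold, under quantile normalization, median centring, other filters, averaging of a gene's probe sets, probe sets numbered on the gene's own chromosome, another vehicle array, a 1.5-fold limit and shared probe sets. The last of these and DMSO at 6 h as the vehicle were chosen after seeing the data. The other filters and the averaging could not change the array differences of the 9 genes. Each of these genes passed every filter and had a single probe set of its own, so those values held by construction. With the mean of both DMSO arrays as the vehicle, the median at 6 h was -0.047 in place of -0.089. The median at 24 h ranged from -1.53 with DMSO at 6 h as the vehicle to -1.40, and shared probe sets made it 8 of 10 genes at least 2-fold lower. The model over both times called 0 to 9 of the 9 genes when an array was left out with the time term. The 9 came without the C646 array of 6 h, a fit identical to that of the 24 h array against both DMSO arrays, and 0 without any other array. Without the filter, limma against both DMSO arrays called 733 probe sets lower and 540 higher, in place of 1144 and 1108, and the limma adjusted p of PCNA was 0.0658. Centred on array medians, RFC4 and RFC5 lay on the other side of 0 at 6 h. Without PCNA's own probe set, numbered on chromosome X, 7 of 8 genes were 2-fold lower. No paired analysis was possible because each group holds 1 array and 1 replicate number, apart from the model over both times, which sets C646 against DMSO within each time. The POLE2 level with C646 at 24 h lies under the filter level, where signal over background limits the difference that can be read.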
